A study of Mus musculus with 70 samples.

Results

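The 8 genes described here are Srebf1, Srebf2, Scap, Insig1, Insig2, Stard4, Tmem97 and Idh1, of 14260 genes with a value. They were chosen by name, with earlier results of these data known. They are regulators of the SREBP transcription factors and carriers of sterols, together with an enzyme that supplies reducing power for sterol synthesis. All 8 were listed, and all 8 passed the filter on low values. Their levels were measured by poly-A RNA sequencing of the hippocampus of mice, from 1 hemibrain per animal.

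The compared genotypes were APP23 transgenic mice (TG), in which the neuronal Thy1 promoter drives human APP, and their non-transgenic littermates (NTG). Both genotypes shared the B6 background named in the strain label, single housing and a cycle of equal light and dark. They had food only between Zeitgeber time (ZT) 15 and ZT21, which is time-restricted feeding for 6 h a day (TRF), or at all times (ad libitum feeding, ALF). ZT0 is lights on and ZT12 lights off, and sacrifice was at one of ZT0, ZT6, ZT12 and ZT18. The age was 6 to 9 months at the start of TRF, and 10 to 13 months when tissue was taken. There were 18 TG mice on TRF, 16 NTG mice on TRF, 19 TG mice on ALF and 16 NTG mice on ALF, 69 in all. The labels also describe a knock-in line that none of these samples carries, and they do not give the sex of any sample.

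SREBPs are made as membrane-bound precursors in the endoplasmic reticulum. Scap escorts them to the Golgi when sterols are low, where cleavage frees the part that enters the nucleus. Insig proteins hold Scap back when sterols are high, and Insig1 is itself induced by SREBPs. Srebf2 is known mainly for genes of cholesterol synthesis and uptake, and Srebf1 mainly for genes of fatty acid synthesis. Cleavage is a step of the protein, which RNA levels do not measure. In adult brain cholesterol is made locally, since lipoproteins of the blood do not cross the blood-brain barrier.

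RefSeq promoters (GRCm38.p6, 250 bases before to 50 after an annotated start) were matched by symbol for 7 of the 8 genes, the other being Stard4. Both strands were searched for the sterol regulatory element TCACNCCAC, for its shorter core CACNCCAC, which lies inside it, for the E-box CACGTG and for the NF-Y box CCAAT. Of all 32851 promoters in the table, 1.24% held TCACNCCAC, 6.24% held CACNCCAC, 7.15% held CACGTG and 37.4% held CCAAT. Of the 11019 genes with a level here and a promoter in the table, 1.35% held TCACNCCAC in at least 1 promoter, 7.54% CACNCCAC, 11.5% CACGTG and 42.5% CCAAT. TCACNCCAC was in no promoter of the 7 genes. Insig1 had CACNCCAC on the reverse strand at position -9 from its start, beside 1 CACGTG and 1 CCAAT, and Idh1 had CACNCCAC at position -59 of its second listed promoter. The promoter of Hmgcs1, which encodes an early enzyme of sterol synthesis and was among the genes most like Insig1 and Stard4 across animals, held TCACNCCAC at position -137 and 4 CCAAT. Of 14 other genes of cholesterol synthesis with a promoter in the table, 0 held TCACNCCAC and 1, Acat2, held CACNCCAC. Of the 3 listed promoters of Insig2, the first had 3 CCAAT and none had CACNCCAC. The 4 sequences are shown because Insig1, Idh1 and Hmgcs1 rose in TG mice (Hmgcs1 by 0.37 ± 0.045 in log2, adjusted p = 1.3e-08, limma) and Insig2 did not pass the test. Capitals mark CACNCCAC, CACGTG and CCAAT on either strand. The Insig1 promoter is chr5:28071162-28071461 (+ strand), that of Idh1 chr1:65179093-65179392 (- strand), that of Hmgcs1 chr13:119690101-119690400 (+ strand) and that of Insig2 chr1:121332540-121332839 (- strand). These matches describe letters only.
Insig1: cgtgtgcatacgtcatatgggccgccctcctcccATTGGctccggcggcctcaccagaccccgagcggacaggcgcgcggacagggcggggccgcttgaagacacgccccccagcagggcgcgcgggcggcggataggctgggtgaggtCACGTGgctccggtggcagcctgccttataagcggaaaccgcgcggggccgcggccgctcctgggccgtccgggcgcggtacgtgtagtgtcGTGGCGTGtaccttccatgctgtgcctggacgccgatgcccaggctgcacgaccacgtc
Idh1, second promoter: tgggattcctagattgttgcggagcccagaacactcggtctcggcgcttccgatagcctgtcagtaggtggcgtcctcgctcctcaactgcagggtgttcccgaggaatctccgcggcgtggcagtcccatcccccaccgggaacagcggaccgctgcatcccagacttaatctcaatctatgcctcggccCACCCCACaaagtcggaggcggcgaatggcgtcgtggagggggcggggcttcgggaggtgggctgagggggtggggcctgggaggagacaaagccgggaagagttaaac
Hmgcs1: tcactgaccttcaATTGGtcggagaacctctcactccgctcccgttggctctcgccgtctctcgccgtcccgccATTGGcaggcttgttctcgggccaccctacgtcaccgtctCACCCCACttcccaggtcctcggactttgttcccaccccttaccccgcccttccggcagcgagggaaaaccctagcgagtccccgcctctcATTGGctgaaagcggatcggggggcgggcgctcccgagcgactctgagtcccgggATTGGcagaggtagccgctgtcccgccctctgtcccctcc
Insig2, first promoter: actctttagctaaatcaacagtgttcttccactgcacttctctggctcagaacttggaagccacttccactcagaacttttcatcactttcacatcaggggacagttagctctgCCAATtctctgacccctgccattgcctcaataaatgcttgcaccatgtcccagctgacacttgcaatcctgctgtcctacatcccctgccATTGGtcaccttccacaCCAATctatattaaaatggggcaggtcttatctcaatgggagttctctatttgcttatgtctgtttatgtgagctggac

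Levels are given as normalized counts, that is, reads per gene after division by one factor per library. Each library held an estimated 27.9 to 47.1 M reads over the listed genes (M, the SI prefix mega). Thy1, whose promoter drives the transgene, ran from 101986 to 171318 normalized counts in the 37 TG mice and from 14727 to 29068 in the 32 NTG mice, without overlap, so every library matched its genotype label. No neuronal or hippocampal marker was at 0 in any animal. Choroid plexus markers varied widely, from 1186 to 235824 summed over 10 genes. All ZT6 and ZT18 animals carry numbers of the 300 series, and only 3 animals of ZT0 and ZT12 do; what a number series stands for is not stated. Libraries are named below as their labels do, by genotype (WT for NTG), feeding, time and animal number. In whole tissue, fewer cells of a type and less RNA per cell cannot be told apart.

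Per kilobase of exon (GENCODE M21 exon union, since the annotation used for counting is not given in the sources used here), the mean level over the 69 animals was highest for Srebf2, at 1207 ± 172 normalized counts per kb (SD). Insig1 followed at 1093 ± 244, within the spread of Srebf2. Idh1 stood at 739 ± 119 per kb, Insig2 at 567 ± 52.9, Srebf1 at 518 ± 74.6, Scap at 445 ± 39.0 and Tmem97 at 371 ± 61.2. Insig2 and Srebf1 lay within their spreads of each other, and Scap lay within the spread of Srebf1. The means of Scap and Tmem97 lay outside each other's spread. Their ranges overlapped, at 368 to 534 per kb for Scap and 229 to 525 for Tmem97. Stard4 was lowest, at 166 ± 43.8 per kb, and its highest animal, at 308.2, lay within the range of Tmem97.

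Comparing TG with NTG mice asks how the transgene's presence goes with each gene. Stard4, Insig1 and Idh1 rose in TG mice over both feedings, Srebf1, Srebf2, Scap, Insig2 and Tmem97 did not pass the test, and none of the 8 fell. The test was limma's moderated test on log2(normalized count + 1) with terms for time of sacrifice, 2-sided, with p-values adjusted over all 14260 genes and a threshold of 0.05. In that comparison 0.449% of all genes passed, and 0.168% passed upward. On ALF 0.189% of genes passed (0.119% upward), and on TRF 0.133% (0.0982% upward). Of the 8 genes, 3 passed on ALF and 1 on TRF. Because the 8 were chosen with earlier results known, their share set against that of all genes is no independent evidence.

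Stard4 (chr18:33199138-33213862, GRCm38.p6) encodes a soluble protein that carries cholesterol between membranes. Its level in TG mice on TRF ran from 831 to 1388 normalized counts (median 1029), against 513 to 951 (median 728) in NTG mice on TRF. On ALF it ran from 837 to 1722 (median 1088) in TG mice and from 569.8 to 931 (median 688) in NTG mice. The ranges overlapped little: 30 of 37 TG mice lay above the highest NTG mouse, and all 37 lay above the NTG median. The mean was 1063 ± 165 in TG mice and 744 ± 134.6 in NTG mice on TRF (SD, n = 18 and 16), and 1135 ± 209 in TG mice and 721 ± 110.2 in NTG mice on ALF (SD, n = 19 and 16). The log2 fold change was 0.51 ± 0.075 on TRF (SE, adjusted p = 7.95e-06, limma) and 0.62 ± 0.074 on ALF (adjusted p = 1.15e-08, limma). Over both feedings it was 0.56 ± 0.053 (adjusted p = 1.02e-12, limma), a level 47.9% higher, which ranked 5th by p among all genes. Within each number series, TG minus NTG was 0.55 in log2 below 100 (7 TG and 8 NTG mice), 0.49 in the 100 series (11 and 12), 0.65 in the 200 series (3 and 4) and 0.72 in the 300 series (16 and 8), so the direction was the same in all 4. These are differences of plain means, without terms for time or feeding. In the 300 series 8 of the 16 TG mice and 3 of the 8 NTG mice were of ZT6, so its size also carries the mix of times.

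Insig1 (chr5:28071412-28078662) encodes the Insig protein that is induced by SREBPs. On TRF its level ran from 2387 to 6769.7 normalized counts (median 3636) in TG mice and from 2129 to 4013 (median 3126) in NTG mice. On ALF it ran from 2792 to 4571 (median 3696) in TG mice and from 2134 to 3391 (median 2955) in NTG mice. The groups overlapped, with 11 of 37 TG mice above every NTG mouse and 31 of 37 above the NTG median. Over both feedings Insig1 rose by 0.32 ± 0.050 (adjusted p = 2e-05, limma), or 24.5%. On ALF it rose by 0.35 ± 0.070 (adjusted p = 0.00447, limma), with means of 3699.9 ± 598 in TG mice and 2853 ± 346 in NTG mice (SD, n = 19 and 16). With ZT0 and ZT12 animals only the ALF call was lost (0.35, adjusted p = 0.106, limma), as it was without the 5 libraries of lowest mean correlation with the others (0.29, adjusted p = 0.0651, limma). On TRF the difference was 0.29 ± 0.071 (interval 0.14 to 0.43) and missed the threshold (adjusted p = 0.0709, limma), with means of 3785 ± 932 in TG mice and 3077 ± 567 in NTG mice (SD, n = 18 and 16).

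Idh1 (chr1:65158616-65186479) encodes the cytosolic isocitrate dehydrogenase, which makes NADPH. On TRF it ran from 1783 to 2963 normalized counts (median 2139.8) in TG mice and from 1498 to 2749 (median 1824) in NTG mice. On ALF it ran from 1730.5 to 2911 (median 2173) in TG mice and from 1315 to 2403 (median 1864) in NTG mice. Few animals stood clear of the other genotype upward, 2 of 37 TG mice, but 35 of 37 lay above the NTG median. Over both feedings Idh1 rose by 0.25 ± 0.043 (adjusted p = 0.000142, limma), or 18.97%. On ALF the rise was 0.29 ± 0.061 (adjusted p = 0.00551, limma), with means of 2228 ± 267 in TG mice and 1825 ± 258 in NTG mice (SD, n = 19 and 16). With ZT0 and ZT12 animals only that call was lost (0.25, adjusted p = 0.153, limma). On TRF the difference was 0.21 ± 0.061 (interval 0.085 to 0.33, adjusted p = 0.301, limma), with means of 2187 ± 291 in TG mice and 1905 ± 319.3 in NTG mice (SD, n = 18 and 16).

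**Figure D1:**
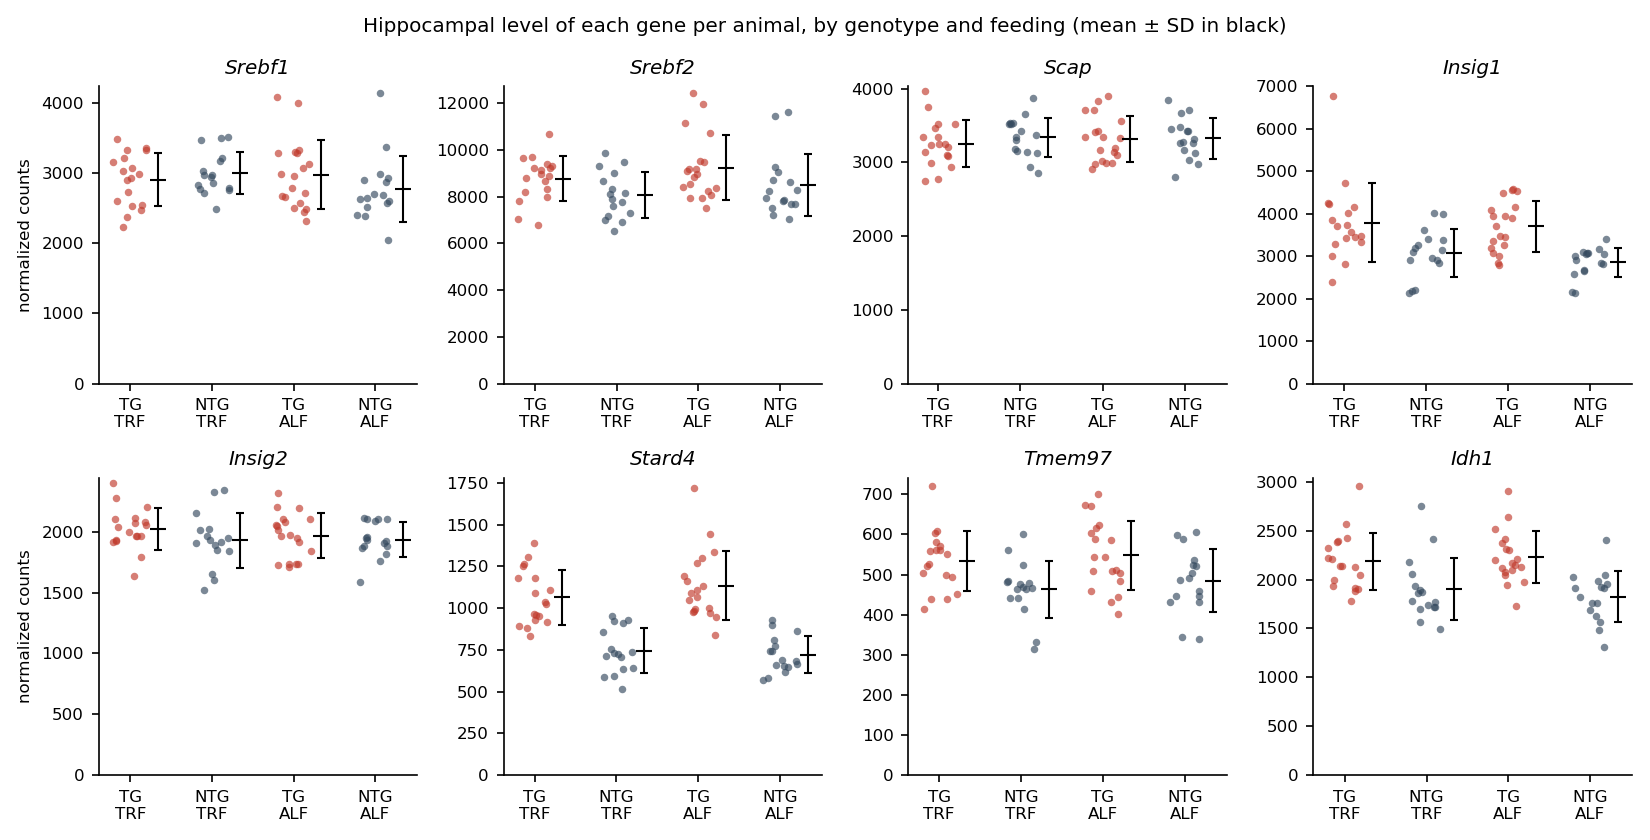
Normalized counts of each of the 8 genes in every animal (points), by genotype and feeding, with the mean and SD of each group in black. For Stard4 the 37 TG animals lie at 831 to 1722 and the 32 NTG animals at 513 to 951, while for Scap the groups cover the same range.

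Tmem97 (chr11:78541817-78550735) encodes a membrane protein that binds the lysosomal cholesterol transporter NPC1. It ran from 402 to 722 normalized counts (median 543) in TG mice and from 314.4 to 606 (median 473) in NTG mice, with overlap over most of that range. Its difference over both feedings was 0.20 ± 0.052 (interval 0.091 to 0.30) with an adjusted p of 0.0656 by limma. The adjusted p was 0.0312 in limma with the number series as a factor (0.20), 0.015 with array weights (0.20) and 0.0381 without the 5 libraries of lowest correlation (0.21). Srebf2 (chr15:82147269-82205379), the regulator of sterol genes, ran from 6769 to 12434 (median 8955) in TG mice and from 6538 to 11632 (median 8022) in NTG mice. The genotypes overlapped throughout, and the difference was 0.14 ± 0.042 (interval 0.053 to 0.22, adjusted p = 0.165, limma). With the number series as a factor (0.14, adjusted p = 0.0486) or array weights (0.14, adjusted p = 0.00645), limma called it.

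The remaining 3 genes had small differences with narrow intervals. For Srebf1 (chr11:60199084-60224186), medians were 2962 in TG mice and 2848 in NTG mice, and the log2 difference over both feedings was 0.024 ± 0.046 (interval -0.069 to 0.12, adjusted p = 0.919, limma). Scap (chr9:110333288-110384949), the escort of SREBPs, had medians of 3243 in TG mice and 3330.1 in NTG mice and a difference of -0.0086 ± 0.031 (interval -0.070 to 0.053, adjusted p = 0.959, limma). Insig2 (chr1:121304353-121332662), the Insig protein that does not depend on SREBPs, had medians of 1998 in TG mice and 1927 in NTG mice and a difference of 0.041 ± 0.030 (interval -0.019 to 0.10, adjusted p = 0.758, limma). In each of these 3 genes the ranges of the genotypes covered one another nearly in full. Transcript isoforms of Srebf1 are summed in one value per gene.

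**Figure D2:**
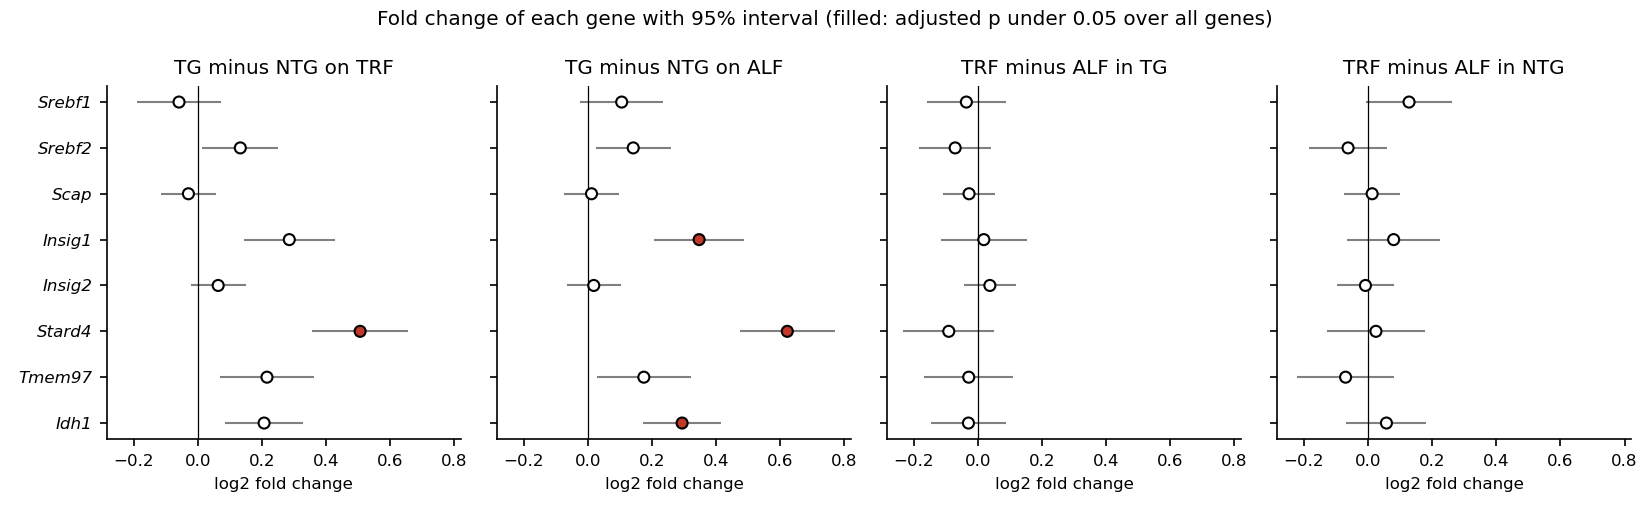
Log2 fold change of each gene with its 95% interval for genotype on each feeding (left pair of panels) and feeding in each genotype (right pair); filled points passed an adjusted p of 0.05. Stard4 passed on both feedings, Insig1 and Idh1 on ALF, and no gene passed for feeding.

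Marker genes of other cell types were measured in the same comparison. On ALF all 10 choroid plexus markers were higher in TG mice (median log2 difference 1.61, none called), their sum running from 1638 to 189450.0 in TG mice and from 1186 to 176285 in NTG mice, and 2 of the markers were at 0 in some animal. On TRF none of the 10 was higher (median -0.22, none called). With the choroid plexus level as a covariate the log2 fold change on ALF was 0.64 for Stard4 (adjusted p = 2.16e-08, limma), 0.35 for Insig1 (0.00695) and 0.25 for Idh1 (0.0442). Astrocyte markers stood lower in TG mice in 12 of 12 over both feedings (median -0.13, 3 called), and all 10 microglia markers stood higher (median 0.11, none called). All 8 markers of oligodendrocyte precursors stood lower (median -0.14, none called). The astrocyte sum ran from 131987 to 252630.0 normalized counts in TG mice and from 171206 to 290415 in NTG mice, and the microglia sum from 13973 to 19990.4 in TG mice and from 13487 to 19285 in NTG mice. No astrocyte or microglia marker was at 0 in any animal, and the part of these cells in the results was not tested.

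Other genes of the pathway were read from lists drawn up with earlier results of these data known, so their direction is no independent evidence. Of 20 genes of cholesterol synthesis, 14 rose in TG mice over both feedings and none fell, with a median of 0.26 against 0.0030 for all genes. Those of smallest p were the squalene synthase Fdft1 (0.45 ± 0.031, adjusted p = 1.13e-18, limma), the farnesyl diphosphate synthase Fdps (0.43 ± 0.033), the squalene epoxidase Sqle (0.40 ± 0.032) and the sterol dehydrogenase Nsdhl (0.42 ± 0.041).

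Of 19 genes of sterol uptake and carriers, 1 rose and none fell. Of these 19, 9 had a positive difference, and the median was -0.013. None of 20 genes of SREBP processing and degradation passed, with a median of -0.016. Those of smallest p were Rnf145, a ubiquitin ligase that acts on Scap, with -0.078 ± 0.022 (adjusted p = 0.0889, limma) and Pgrmc1 with 0.089 ± 0.030 (0.252). Of 17 fatty acid genes regulated by SREBP1, Acly, which makes cytosolic acetyl-CoA, rose by 0.12 ± 0.026 (adjusted p = 0.00437, limma), and Gpam, which starts glycerolipid synthesis, fell by 0.19 ± 0.048 (adjusted p = 0.0319, limma); the median was -0.035. None of 10 other suppliers of NADPH passed (median 0.016), the smallest p belonging to Aldh1l1 (-0.11 ± 0.061, adjusted p = 0.681, limma) and Me1 (-0.053 ± 0.032, 0.695). Nor did any of 10 targets of the oxysterol receptor LXR, a list that holds Srebf1 itself (median 0.0075), with Nr1h3 at 0.13 ± 0.074 (adjusted p = 0.689, limma) and Abcg1 at -0.057 ± 0.053 (0.819).

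**Figure D3:**
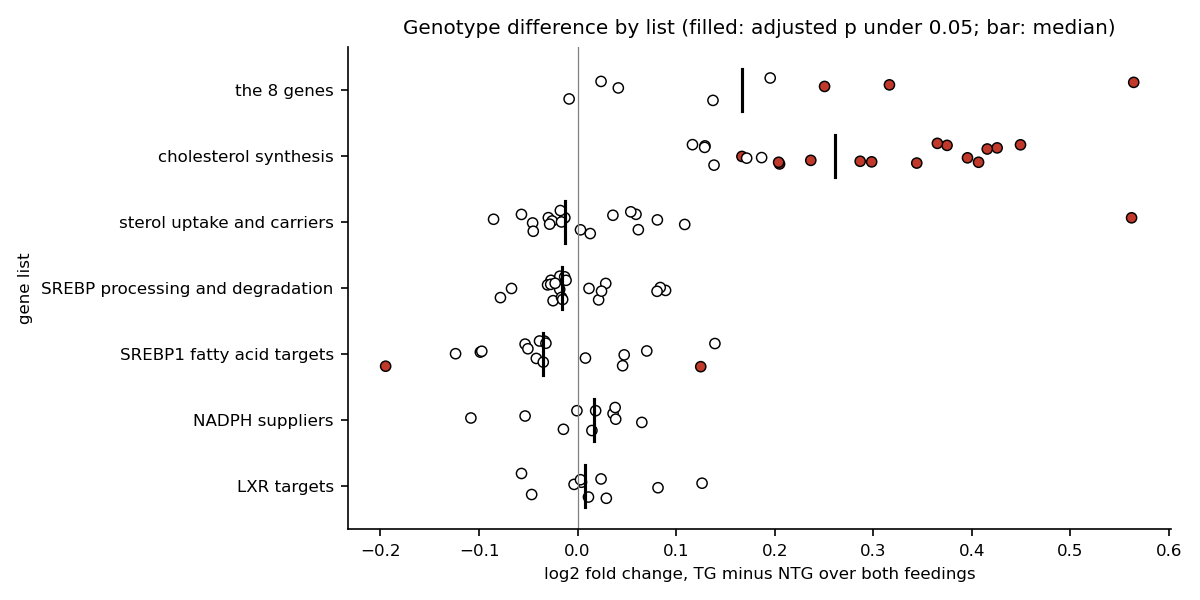
Log2 fold change of TG minus NTG mice over both feedings for the 8 genes and for each pathway list; 1 point is 1 gene, filled where the adjusted p is under 0.05, and the bar is the list's median. Filled points to the right of 0 number 3 among the 8 genes and 14 of 20 in cholesterol synthesis.

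Whether restricted feeding goes with a change in these genes was tested within each genotype. None of the 8 genes passed in either genotype or over both. Of all genes 0.540% passed in TG mice, 0.0281% in NTG mice and 1.68% over both genotypes. In log2, the differences of the 8 genes lay between -0.091 (Stard4) and 0.038 (Insig2) in TG mice and between -0.070 (Tmem97) and 0.13 (Srebf1) in NTG mice. Over both genotypes Stard4 ran from 513 to 1388 normalized counts (median 918) on TRF and from 569.8 to 1722 (median 946) on ALF, Insig1 from 2129 to 6769.7 (median 3389) on TRF and from 2134 to 4571 (median 3088) on ALF. The feeding groups overlapped for each gene. The interval over both genotypes was -0.14 to 0.071 for Stard4, -0.049 to 0.15 for Insig1, -0.071 to 0.099 for Idh1 and -0.15 to 0.016 for Srebf2.

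Srebf1 in NTG mice had the difference of smallest p, 0.13 ± 0.067 (interval -0.0055 to 0.26, adjusted p = 0.702, limma), with 2492 to 3518 normalized counts (median 2959) on TRF and 2042 to 4142 (median 2671) on ALF. In TG mice it was -0.036 ± 0.062, and the difference between genotypes in this change was -0.16 ± 0.091 (adjusted p = 0.968, limma). No gene at all passed that test of genotype by feeding by limma (0% of 14260; 745 had an unadjusted p under 0.05). For Stard4 its interval was -0.32 to 0.093, for Insig1 -0.26 to 0.14 and for Idh1 -0.26 to 0.083. Insig1 and Idh1 passed on ALF and not on TRF, but the tested difference between the feedings did not pass for either. It was -0.062 for Insig1 and -0.087 for Idh1 (adjusted p = 0.996 for each, limma).

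At ZT0, just after the dark phase in which TRF mice eat, Srebf2 and Tmem97 stood lower on TRF without passing. The log2 difference was -0.18 ± 0.070 for Srebf2 (adjusted p = 0.212, limma) and -0.19 ± 0.078 for Tmem97 (adjusted p = 0.215, limma), and 0.0491% of all genes passed at this time. The highest Srebf2 values at ZT0 were all of ALF libraries: TG_ALF_0_16 (12434.5), TG_ALF_0_5 (11953.6), WT_ALF_0_1 (11632.5) and WT_ALF_0_107 (11441.5). Each of these is among the 5 libraries of lowest mean correlation with the others. A fit without those 5 libraries was among 14 alternatives tried for this comparison. Over the 14 the Srebf2 difference ran from -0.20 to -0.046 and never passed. Which fit gave which value is not reported here. At ZT12 0.00701% passed and none of the 8 genes did. Among pathway lists over both genotypes, Nnt, which regenerates NADPH in mitochondria, fell by 0.27 ± 0.073 on TRF (adjusted p = 0.036, limma), and Lipa, the lysosomal acid lipase that frees cholesterol from its esters, fell by 0.17 ± 0.047 (adjusted p = 0.0453, limma). No gene of cholesterol synthesis, SREBP processing, the fatty acid list or the LXR list passed there. Of oligodendrocyte markers 12 of 12 stood lower on TRF and 4 passed (median -0.11). Their sums were 161415 to 249130.0 normalized counts on TRF and 163339 to 421431 on ALF, with no marker at 0. The calls of this comparison depended on the fit. Of 14260 genes 239 passed as reported, and 71 once myelin level was allowed for. Without the 5 libraries of lowest correlation 55 passed, and 30 when time was left out. The highest count, 269, came with the repeat library as an animal of its own. Whether Lipa and Nnt kept their calls in these fits is not reported here.

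Time of sacrifice was related to most of the 8 genes. In an F test over the 4 times, 35.6% of all genes passed, and so did 6 of the 8. These were Insig1 (adjusted p = 1.67e-05, limma), Insig2 (0.00295), Idh1 (0.0107), Srebf2 (0.0136), Stard4 (0.0177) and Tmem97 (0.0292); Scap had 0.0728 and Srebf1 0.079. The ZT6 and ZT18 animals all come from the 300 series, which holds only 2 animals of ZT0 and 1 of ZT12, so that ZT6 and ZT18 against the other times can be told apart from the series through those 3 animals alone. With the number series as a factor 7 of the 8 passed, these 6 and Srebf1 (adjusted p = 0.0424, limma). Srebf2 lost its call with the libraries rescaled to the same total (adjusted p = 0.0567, limma) and without the 5 libraries of lowest correlation (0.0959). Tmem97 lost its call without the NTG library named WT_TRF_18_326 (0.068) or WT_ALF_18_325 (0.0631) or the TG library TG_ALF_18_314 (0.0526), and Stard4 without TG_ALF_6_310 (0.0508).

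Over all animals Insig1 averaged 3262 ± 598 normalized counts at ZT0, 4042 ± 458 at ZT6, 3487 ± 854 at ZT12 and, last, 2709 ± 469 at ZT18 (SD, n = 25, 11, 23 and 10). Stard4 had its highest mean at the same time, which was 1144 ± 284, beside 905 ± 238 at ZT0, 889 ± 203 at ZT12 and 849 ± 204.5 at ZT18. Idh1 averaged 2096 ± 283, 2235 ± 402, 2012 ± 297 and 1813 ± 306 at these times, and Tmem97 489.6 ± 64.1, 541 ± 80.1, 540.4 ± 93.8 and 456 ± 77.8. Insig2 ran the other way at the end of the series, with 2198 ± 134.03 at ZT18 after 1955 ± 155, 1935 ± 214 and 1899 ± 141 at the earlier times. Srebf2 averaged 9239 ± 1499, 8526 ± 828.8, 8473 ± 1039 and 7844 ± 629.7, Scap 3423 ± 283, 3182 ± 242, 3327 ± 315.3 and 3129.6 ± 153, and Srebf1 3081 ± 462, 2974 ± 393, 2743 ± 273 and 2868 ± 502. Of the 8 genes, Insig1, Stard4, Idh1 and Tmem97 had their highest mean at ZT6, and Insig2 alone had it at ZT18. For Tmem97 the means at ZT6 and ZT12 were nearly equal. TG mice were 8 of the 11 animals at ZT6 and 11 of the 23 at ZT12, which bears on these pooled means. By genotype, Tmem97 averaged 567.7 ± 78.1 at ZT6 and 604 ± 66.0 at ZT12 in TG mice, and 469 ± 11.4 at ZT6 and 482 ± 77.0 at ZT12 in NTG mice.

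**Figure D4:**
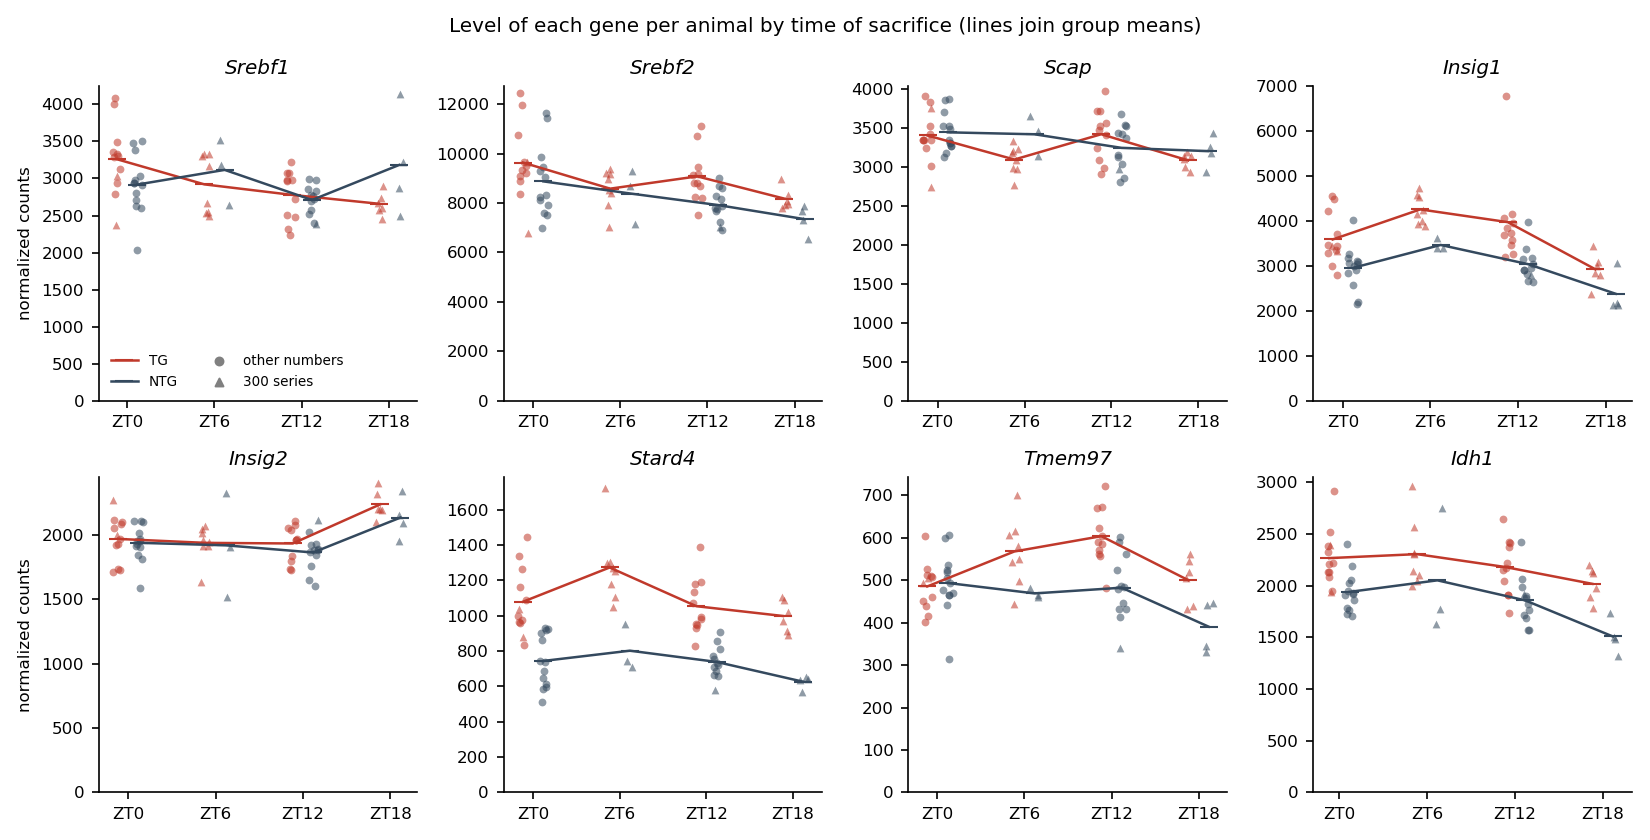
Normalized counts of each gene in every animal by time of sacrifice, with lines joining the TG and NTG means and triangles for animals of the 300 number series. Insig1 in TG mice lies at 3893 to 4725 at ZT6 and at 2387 to 3454 at ZT18, and both sets are of the 300 series.

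Within the 300 series, ZT18 was compared with ZT6 in TG mice. Insig1 fell, and the other 7 genes did not pass. Insig1 had 2387, 2806 and 2998 normalized counts at ZT18 in TG mice on TRF and 2838, 3080.5 and 3454 in TG mice on ALF. At ZT6 it had 4009, 4162, 4241 and 4725 in TG mice on TRF and 3893, 3935, 4527 and 4571 in TG mice on ALF. The times did not overlap on either feeding. The log2 change was -0.55 ± 0.11 (adjusted p = 0.00156, limma), with means of 2927 ± 352 at ZT18 and 4258 ± 316 at ZT6 (SD, n = 6 and 8). Of all genes 4.07% passed and 1.68% passed downward. Leaving out each animal in turn kept the call in 69 of 69 fits.

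Stard4 had a change of -0.34 ± 0.12 in the same animals (interval -0.58 to -0.10, adjusted p = 0.101, limma), with 889.9 to 1106 (median 995) at ZT18 and 1048 to 1722 (median 1259.7) at ZT6. Insig2 stood higher at ZT18 in every animal, at 2103, 2205 and 2404 in TG mice on TRF and 2194, 2205 and 2322 in TG mice on ALF. At ZT6 it had 1634, 1918, 1963 and 2073 on TRF and 1918, 1949, 2019.5 and 2046 on ALF. Although the ranges did not overlap, its change of 0.21 ± 0.069 missed the threshold over all genes (interval 0.071 to 0.35, adjusted p = 0.0718, limma). With array weights limma called Insig2 (0.23, adjusted p = 0.00143), Stard4 (-0.33, 0.00804) and Srebf1 (-0.20, 0.0475). With the number series as a factor limma called Insig2 (0.21, adjusted p = 0.048) and Stard4 (-0.34, 0.0274). The TG animals of both times share a number series, so that factor cannot alter the estimated changes, only their errors. Its calls are therefore no check on the series. Idh1 changed by -0.18 ± 0.093 (adjusted p = 0.331, limma) and Tmem97 by -0.18 ± 0.11 (0.448), neither past the threshold.

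Of the 20 genes of cholesterol synthesis, 8 fell at ZT18 relative to ZT6 in TG mice and none rose (median -0.24 against 0.0023 for all genes). They included Fdft1 (-0.29 ± 0.070, adjusted p = 0.00906, limma), Msmo1 (-0.34 ± 0.091) and Hmgcs1 (-0.37 ± 0.10). No gene of uptake passed, with Lipa at 0.29 ± 0.10 (adjusted p = 0.105, limma). None passed among SREBP processing (Sec24c 0.18 ± 0.057, adjusted p = 0.0533, limma) or the fatty acid list (Gpam -0.30 ± 0.11, adjusted p = 0.118, limma). Idh2 rose by 0.31 ± 0.093 (adjusted p = 0.0404, limma) and the phospholipid enzyme Lpcat3 fell by 0.26 ± 0.066 (adjusted p = 0.0115, limma). All 10 choroid plexus markers stood higher at ZT18 (median 0.81, none called), with sums over both genotypes of 1536 to 235824 at ZT18 and 1638 to 189450.0 at ZT6. With the choroid plexus level as a covariate, 592 of 14260 genes passed in this comparison, against 580 in the reported fit. In NTG mice Insig1 had 2129, 2134, 2187 and 3076 at ZT18 and 3391, 3394 and 3618 at ZT6, with no overlap. This difference was not tested, and how many of all genes lack overlap between so few animals is not reported here.

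ZT12 was compared with ZT0, the times with at least 5 animals in each group, to ask how the end of the light phase differs from the end of the dark phase. Srebf1 fell and Tmem97 rose over the 4 groups, among 26.1% of all genes that passed (12.8% downward and 13.3% upward). Srebf1 ran from 2239 to 3222 normalized counts at ZT12 (median 2766) and from 2042 to 4087 at ZT0 (median 3029), with 3 of 23 animals at ZT12 above the ZT0 median. Its log2 change was -0.16 ± 0.052 (adjusted p = 0.0141, limma), and -0.14 with the libraries rescaled to the same total (adjusted p = 0.0562, limma). Within the number series below 100, 100 and 200 it was -0.26, -0.12 and -0.28 (7 ZT12 and 8 ZT0 animals, 12 and 11, and 3 and 3). Tmem97 ran from 339 to 722 at ZT12 (median 561) and from 314.4 to 606 at ZT0 (median 495), with a change of 0.15 ± 0.056 (adjusted p = 0.0466, limma) that passed in 44 of 69 fits leaving out 1 animal (adjusted p 0.0211 to 0.0831, highest without the NTG library WT_ALF_12_135). Within the same 3 series it was 0.27, 0.11 and 0.45.

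The change of Tmem97 was also read in each of the 4 groups. It averaged 603 ± 68.6 at ZT12 and 471 ± 42.9 at ZT0 in TG mice on TRF, and 604 ± 70.3 at ZT12 and 499 ± 66.7 at ZT0 in TG mice on ALF. In NTG mice on TRF it averaged 511 ± 66.7 at ZT12 and 439 ± 62.0 at ZT0, and in NTG mice on ALF 454 ± 81.9 at ZT12 and 540.4 ± 44.6 at ZT0 (SD, n = 5 to 7). The log2 change was 0.35 ± 0.12 in TG mice on TRF (adjusted p = 0.0803, limma), 0.28 ± 0.11 in TG mice on ALF (0.174), 0.22 ± 0.11 in NTG mice on TRF (0.591) and -0.27 ± 0.11 in NTG mice on ALF (0.168). NTG mice on ALF thus had the sign opposite to the other 3 groups. Yet none of the 8 genes passed within any group, where 3.55%, 2.22%, 0.596% and 2.17% of all genes did in that order. The difference in this change was 0.34 ± 0.11 between genotypes (adjusted p = 0.989, limma) and 0.28 ± 0.11 between feedings (adjusted p = 0.972, limma). No gene passed either test by limma (0% of 14260 in each, with 694 and 489 at an unadjusted p under 0.05).

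By time, TG minus NTG at ZT12 called Stard4 and Insig1, and at ZT0 Stard4. Of all genes 0.154% passed at ZT12 (0.105% upward) and 0.112% at ZT0 (0.0771% upward). Stard4 differed by 0.51 ± 0.093 at ZT12 (adjusted p = 0.0021, limma) and by 0.55 ± 0.089 at ZT0 (adjusted p = 0.000168, limma). At ZT12 10 of 11 TG mice lay above every NTG mouse, and at ZT0 10 of 12 did. Insig1 differed by 0.37 ± 0.087 at ZT12 (adjusted p = 0.0488, limma), where TG mice ran from 3200.4 to 6769.7 (median 3737) and NTG mice from 2655 to 3989 (median 2932). That call was lost in 52 of 69 fits leaving out 1 animal, with the highest p without TG_TRF_12_24 (0.28, adjusted p = 0.166, limma), and with voom on the recovered reads (adjusted p = 0.0506, limma). Tmem97 differed by 0.33 ± 0.081 at ZT12 (adjusted p = 0.0766, limma) and by -0.0043 ± 0.078 at ZT0 (adjusted p near 1, limma).

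Of the pathway lists, 7 of 20 genes of cholesterol synthesis rose at ZT12 relative to ZT0 over the 4 groups and none fell (median 0.088), led by Lss (0.32 ± 0.056), Nsdhl (0.21 ± 0.050), Acat2 (0.16 ± 0.041) and Mvk (0.19 ± 0.051). Of 19 uptake genes 5 fell and none rose, among them the lipoprotein receptors Lrp8 (-0.23 ± 0.041) and Lrp1 (-0.31 ± 0.087), the sterol esterifying enzyme Soat1 (-0.26 ± 0.069) and the lysosomal exporter Npc1 (-0.16 ± 0.056). Fatty acid genes fell in 4 of 17 and rose in none: Elovl6, Fads2, Gpam and Elovl5 (-0.19 ± 0.049, -0.14 ± 0.047, -0.17 ± 0.059 and -0.10 ± 0.039). The 4 LXR targets that fell were Lpcat3 (-0.20 ± 0.035), Abca1 (-0.23 ± 0.061), Nr1h3 (-0.26 ± 0.085) and Srebf1 itself. SREBP processing genes passed upward in 3 of 20 (Sec24d, Erlin1 and Sar1b, which act in vesicle transport or Insig turnover) and downward in 1 (the chaperone Hsp90b1, -0.52 ± 0.045). Among NADPH suppliers, Idh2 rose by 0.18 ± 0.050 and Nnt fell by 0.42 ± 0.089. Endothelial markers moved too, 6 of 8 lower and 2 higher, with sums of 3898 to 8228 at ZT12 and 4591 to 10134 at ZT0, as did oligodendrocyte precursor markers, 5 of 8 lower and 1 higher, with sums of 10284 to 14651 at ZT12 and 13145 to 16973 at ZT0; no marker of either type was at 0, and their part in the result was not tested.

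Across animals, each gene's log2 deviation from the mean of its group and time was correlated with that of every other gene, over 68 animals whose group and time held at least 2. Points of 1 animal share a library, its depth and its tissue piece. Among the 28 pairs of the 8 genes, Srebf2 and Scap were closest, with Pearson's r of 0.77 and Spearman's rho of 0.78 (permutation p = 1e-05 each, 2-sided, the smallest that 100000 permutations give; adjusted over the 28 pairs 7e-05). Without the 2 animals farthest from the median of Srebf2, r was 0.74. Yet 253 other genes followed Srebf2 more closely than Scap did. For Scap, Srebf2 ranked 31st among 14259 genes. Insig1 and Stard4 had r of 0.60 and rho of 0.57 (permutation p = 1e-05 each, adjusted 7e-05; r of 0.56 without the 2 animals farthest in Insig1). For Insig1, Stard4 ranked 14th among 14259 genes, and for Stard4, Insig1 ranked 226th.

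Insig2 ran against Srebf2, with r of -0.67 and rho of -0.70 (permutation p = 1e-05 each, adjusted 7e-05). Without the 2 animals farthest in Srebf2, r was -0.63. With Scap, Insig2 had r of -0.53 and rho of -0.55 (permutation p = 1e-05 each, adjusted 7e-05). Without the 2 animals farthest in Scap, r was -0.48. With Srebf1, Insig2 had a weaker r of -0.39 and rho of -0.39 (permutation p = 0.00106 and 0.00107, adjusted 0.00247). In order of falling r among 14259 genes, Insig2 ranked 13725th for Srebf2 and 13789th for Scap. Many other genes thus ran against Srebf2 and Scap more strongly than Insig2 did. For Insig2, Srebf2 ranked 14247th and Scap 13909th. The pair of Insig genes had r of -0.26 and rho of -0.27 (permutation p = 0.0306 and 0.0288, adjusted 0.0504). Stard4 and Idh1 had r of 0.48 and rho of 0.47 (permutation p = 6e-05 and 7e-05, adjusted 0.000336; r of 0.43 without the 2 animals farthest in Stard4). Idh1 ranked 1046th for Stard4, and Stard4 1159th for Idh1. Srebf1 and Stard4 had r of 0.10 and rho of 0.13 (permutation p = 0.397 and 0.284, adjusted 0.505).

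**Figure D5:**
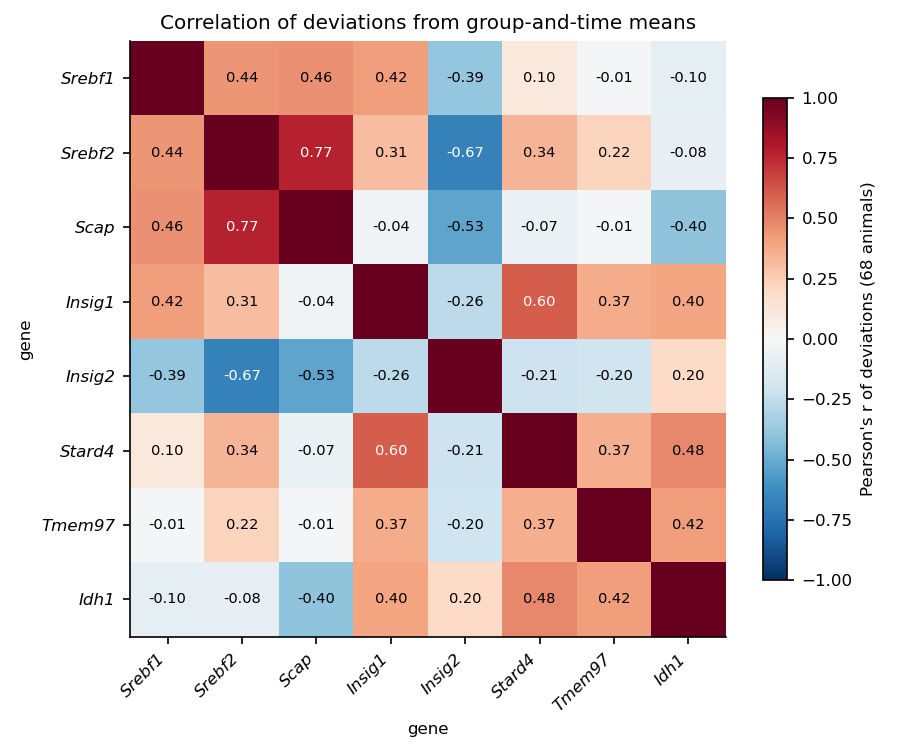
Pearson's r between the 8 genes, each taken as the log2 deviation from its group-and-time mean over 68 animals; red is positive and blue negative. Srebf2 and Scap (0.77) and Insig1 and Stard4 (0.60) are the closest pairs, and Insig2 is negative with Srebf2 (-0.67).

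The genes of highest r among all 14259 were as follows, as a description over the same 68 animals. Srebf1 was closest to Ttyh2 (0.72), Bcan (0.70) and Galnt6 (0.69). Srebf2 was closest to Ap3d1 (0.92), Tom1l2 (0.91) and the fatty acid synthase Fasn (0.91), and Scap to the clock gene Cry2 (0.89), Dctn1 (0.87) and Grik5 (0.84). Insig1 had Cd99l2 (0.68), Hmgcs1 (0.68) and Gpr37l1 (0.67), and Stard4 had Hspa4l (0.74), Hmgcs1 (0.74) and Oip5os1 (0.73). Hmgcs1 was thus on the lists of both Insig1 and Stard4. Insig2 was closest to Mff (0.79), Eif4a2 (0.77) and Tiprl (0.76), and Idh1 to Fam91a1 (0.78), Slc4a10 (0.77) and Cdc27 (0.77). Tmem97 had no neighbour as close, its 3 highest being Bmp7 (0.58), Tmem64 (0.57) and S1pr1 (0.57).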

How the data were processed

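Hippocampal poly-A RNA of 70 libraries was sequenced in PE150 mode on 1 hemibrain per animal, per the labels' protocols. HISAT2, featureCounts, DESeq2 and the build GRCm38 are given without versions, per the submitters' processing notes. The deposited values are an expression signal that the authors made by dividing each gene's reads by one factor per library; genes under some level are not listed. Every value was a whole multiple of its library's step (tolerance 0.01 of a step), which gave the estimated depths of 27.9 to 47.1 M reads; errors given are the spread between animals, which includes counting error. Reads recovered from the step were tested with limma's voom, an alternative chosen after seeing the data.

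Libraries 232 and 232R (NTG on TRF) were averaged as 1 animal, which the labels do not state. Values were tested as log2(value + 1) with limma 3.58.1 in R 4.3.3 (trend and robust variances, Benjamini-Hochberg over 14260 genes, threshold 0.05); no gene fell below the filter, a mean of 10. Genotype, feeding and the 4 times came from 4 group means plus time terms, other contrasts from 16 group-and-time means. Intervals are 95%. Summaries, correlations and promoter searches used Python 3.11.15, numpy 2.4.6, pandas 2.3.3 and scipy 1.17.1, and the tests were tried on simulated data.

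All 8 genes are named in every comparison; of each pathway list, those that passed, at most 4 by smallest p, or else at most 2 of smallest p; and for each of the 8 genes the 3 of highest correlation. Some results of these lists are not reported here. The genes and lists were chosen with earlier results of these data known. Hmgcs1 was added to the promoters after its correlations were seen. Alternatives were a pseudocount of 10, no filter or a mean of at least 200, libraries rescaled to the same total, no time term, ZT0 and ZT12 animals only, the number series, choroid plexus or myelin level as a covariate, array weights, no trend or robust variances, library 232 alone or both as 2 animals, leaving out the 5 libraries of lowest mean correlation with the others, and leaving out each animal.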

Additional observations from a re-analysis of the deposited data

Results flagged for a closer look

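In 80 sets of 4 to 7 animals (1 gene in 1 group at 1 time), 4 values stood far from the others; chance flags about 1 set in 20, so this is about what chance gives. Srebf2 in TG_TRF_0_323 had 6769 normalized counts, where the others had 8885 to 9670.2; it is of the 300 number series. Insig1 in TG_TRF_12_24 had 6769.7, where the others had 3460.5 to 3846. Tmem97 in the same animal had 722, where the others had 558 to 604, and its Stard4 (1388) and Srebf2 (10691) were also the highest of their set of 5. Tmem97 in the NTG library WT_TRF_0_202 had 314.4, where the others had 443 to 477.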

How the results depend on the processing

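Every alternative was run for every comparison it can be fitted to, and no call of the 8 genes reversed its direction. The number of the 8 genes past the threshold in TG minus NTG on ALF (3) was 1 with ZT0 and ZT12 animals only and 2 without the 5 libraries. On TRF (1) it was 2 with the number series, the myelin covariate, the repeat library counted as an animal of its own or without the 5 libraries, and 3 with array weights. Over both feedings (3) it was 5 with the number series and with array weights and 4 without the 5 libraries. At ZT12 (2) it was 1 with ZT0 and ZT12 animals only without trend and robust variances or with voom on recovered reads, chosen after seeing the data, and 4 with array weights. For ZT12 minus ZT0 over 4 groups (2) it was 1 with rescaled libraries; in TG mice on ALF (0) it was 1 with the myelin covariate, and in TG mice on TRF (0) 1 with array weights. For ZT18 minus ZT6 in TG mice (1) it was 3 with the number series, 4 with array weights and 2 without the 5 libraries. The animals of ZT18 minus ZT6 share a number series, so the series factor cannot adjust that change. In the other comparisons voom gave the same count as the reported test. The causes were not tested. Leaving out each animal gave 1 to 2 on TRF, 1 to 3 at ZT12, 0 to 1 for ZT12 minus ZT0 in TG mice on ALF, 1 to 3 over 4 groups, 3 to 4 for TG minus NTG over both feedings, 5 to 8 for the F test over 4 times (6) and 1 to 2 for ZT18 minus ZT6. The second call on TRF came without WT_ALF_18_325, WT_TRF_0_8, WT_TRF_12_10 or TG_TRF_18_302, the call in TG mice on ALF without TG_ALF_0_127, and that of ZT18 without WT_TRF_6_309 or WT_TRF_6_312. Limits: ZT6 and ZT18 hold few animals and 1 number series, sex is unknown per sample, RNA does not measure SREBP cleavage, and a lone NTG ALF animal stands at ZT6. No paired analysis was possible because the animal numbers do not repeat between groups.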
